A study of Mus musculus with 6 samples.

Results

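Of 22180 genes measured in whole embryonic mouse lung, 66 (0.298%) were high on 1 array, that of control replicate 1, and lay at least 1 log2 unit lower on each of the other 5 arrays. Most of the named genes among them are known from the lining of the mature small intestine. They include alpha-defensins and the lysozyme of Paneth cells, secreted and membrane mucins of the gut, and digestive enzymes and fat-binding proteins of absorptive cells. Defa21, the gene that stood out furthest, was 64.5-fold above the highest other array. The members were chosen by these same expression values: a gene entered when its log2 value in control replicate 1 exceeded the highest of the other 5 arrays by more than 1. That gap is called the excess here, and it is given as a description, with no test.

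The arrays came from lung buds dissected at E12.5 with 100 ng of total RNA per array. The control group was 3 arrays of lung of genotype Shh cre/+, and the mutant group was 3 arrays of lung of genotype Fzd2Flox/Flox; Shh cre/+, so 1 Cre allele at Shh was common to all 6. Shh is active in the epithelium of the lung bud and of the gut, so the Cre allele acts in epithelium, while the arrays also measured the mesenchyme. The labels call the arrays biological replicates and do not say whether 1 embryo or a pool stood behind each. Values are log2 expression after RMA, a procedure that gives all arrays the same overall distribution, and array medians ran from 7.29 to 7.32. The number of arrays limits the precision. Fzd2, the targeted gene, had log2 values of 9.57 against 9.82 and 9.75 in the other controls and 9.67, 9.07 and 9.54 in the mutants (in that order from control replicate 1), and the groups overlapped.

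The small intestine is lined by a single sheet of cells with divided labour. Enterocytes absorb nutrients across a brush border of microvilli that carries sugar- and peptide-splitting enzymes. Goblet cells secrete the mucus layer. Paneth cells sit at the base of the crypts and release antimicrobial peptides, and in mice they appear only after birth. A lung bud at this stage has neither enterocytes nor Paneth cells, and goblet cells appear in airways only later. Because whole tissue was measured, more cells of a type and more RNA per cell cannot be told apart. The source of the members' transcripts on control replicate 1 was not tested.

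Promoters of some members show which loci are meant and how closely some members resemble each other or a gene that did not share their pattern. RefSeq windows of 300 bases, 250 before to 50 after the transcription start (build GRCm38.p6), were found for 53 of the 66 members. Short motifs of gut and general promoters were searched on both strands, and matches to either strand are in capitals below. The letters TATAAA stand for the TATA box and TTTATG for the CDX factors of the gut. For the GATA factors the letters were AGATAA, for HNF4 they were AAAGTCC, and for HNF1 they were GTTAAT. The windows are those of Defa21 (chr8:21025295-21025594, plus strand), Lyz1 (chr10:117292819-117293118, minus strand), its neighbour and paralog Lyz2 (chr10:117282223-117282522, minus strand), Sis (chr3:72967814-72968113, minus strand) and Fabp1 (chr6:71199629-71199928, plus strand).
Defa21: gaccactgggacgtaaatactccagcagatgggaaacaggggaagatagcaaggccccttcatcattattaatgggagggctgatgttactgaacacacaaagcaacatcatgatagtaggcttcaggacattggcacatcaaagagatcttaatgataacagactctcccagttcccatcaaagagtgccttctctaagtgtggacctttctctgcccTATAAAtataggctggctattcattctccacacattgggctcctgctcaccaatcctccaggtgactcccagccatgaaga
Lyz1: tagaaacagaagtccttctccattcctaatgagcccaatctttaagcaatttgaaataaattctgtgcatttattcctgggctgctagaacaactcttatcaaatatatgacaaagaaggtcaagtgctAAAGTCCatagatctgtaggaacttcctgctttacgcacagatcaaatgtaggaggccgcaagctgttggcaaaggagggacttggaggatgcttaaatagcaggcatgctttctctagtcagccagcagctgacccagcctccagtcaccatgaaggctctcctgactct
Lyz2: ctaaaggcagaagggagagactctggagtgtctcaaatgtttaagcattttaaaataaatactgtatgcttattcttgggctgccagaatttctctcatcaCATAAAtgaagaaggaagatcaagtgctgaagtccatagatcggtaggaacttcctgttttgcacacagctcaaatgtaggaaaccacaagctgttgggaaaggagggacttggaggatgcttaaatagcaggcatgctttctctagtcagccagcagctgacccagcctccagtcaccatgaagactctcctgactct
Sis: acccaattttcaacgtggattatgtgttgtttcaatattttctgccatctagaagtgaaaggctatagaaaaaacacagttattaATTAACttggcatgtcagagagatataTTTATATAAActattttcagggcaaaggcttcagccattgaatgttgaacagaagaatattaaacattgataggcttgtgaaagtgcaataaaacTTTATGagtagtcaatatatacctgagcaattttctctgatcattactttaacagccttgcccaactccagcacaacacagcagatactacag
Fabp1: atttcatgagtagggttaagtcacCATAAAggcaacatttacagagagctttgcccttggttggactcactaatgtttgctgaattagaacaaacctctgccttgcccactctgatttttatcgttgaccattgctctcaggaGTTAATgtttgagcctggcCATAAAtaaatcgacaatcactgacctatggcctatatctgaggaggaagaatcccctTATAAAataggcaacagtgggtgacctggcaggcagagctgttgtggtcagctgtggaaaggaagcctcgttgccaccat
The Defa22 window had the same 300 bases as that of Defa21. Defa35 shared 87.0% and Defa41 78.0% of the 300 bases of the Defa21 window in a global alignment, with 30 and 86 gap columns. The windows of Defa21 and Lyz1, genes of different families, shared 52.7% in the same way. Lyz1 and Lyz2 shared 83.0%, and Fabp1 and Fabp2 50.7%. Fabp1 (excess 1.78) was printed although its paralog Fabp2 had the larger excess (3.97). The Fabp2 window held none of the letters searched. In the Sis window the TATA matches on both strands overlap.

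Of the 53 members, 17 (32.1%) held the TATA letters, against 15.7% of 27025 genes in the promoter table. The HNF1 letters were in 13 members (24.5%, against 8.2% of all genes), those of CDX in 12 (22.6%, against 13.6%), those of HNF4 in 8 (15.1%, against 4.8%) and those of GATA in 8 (15.1%, against 12.7%). The 4 defensin genes with a window (Defa21, Defa22, Defa35 and Defa41) all held the TATA letters. A match is only a match of letters, at any position in the window. Related promoters such as those of the defensins are not separate observations.

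**Figure D1:**
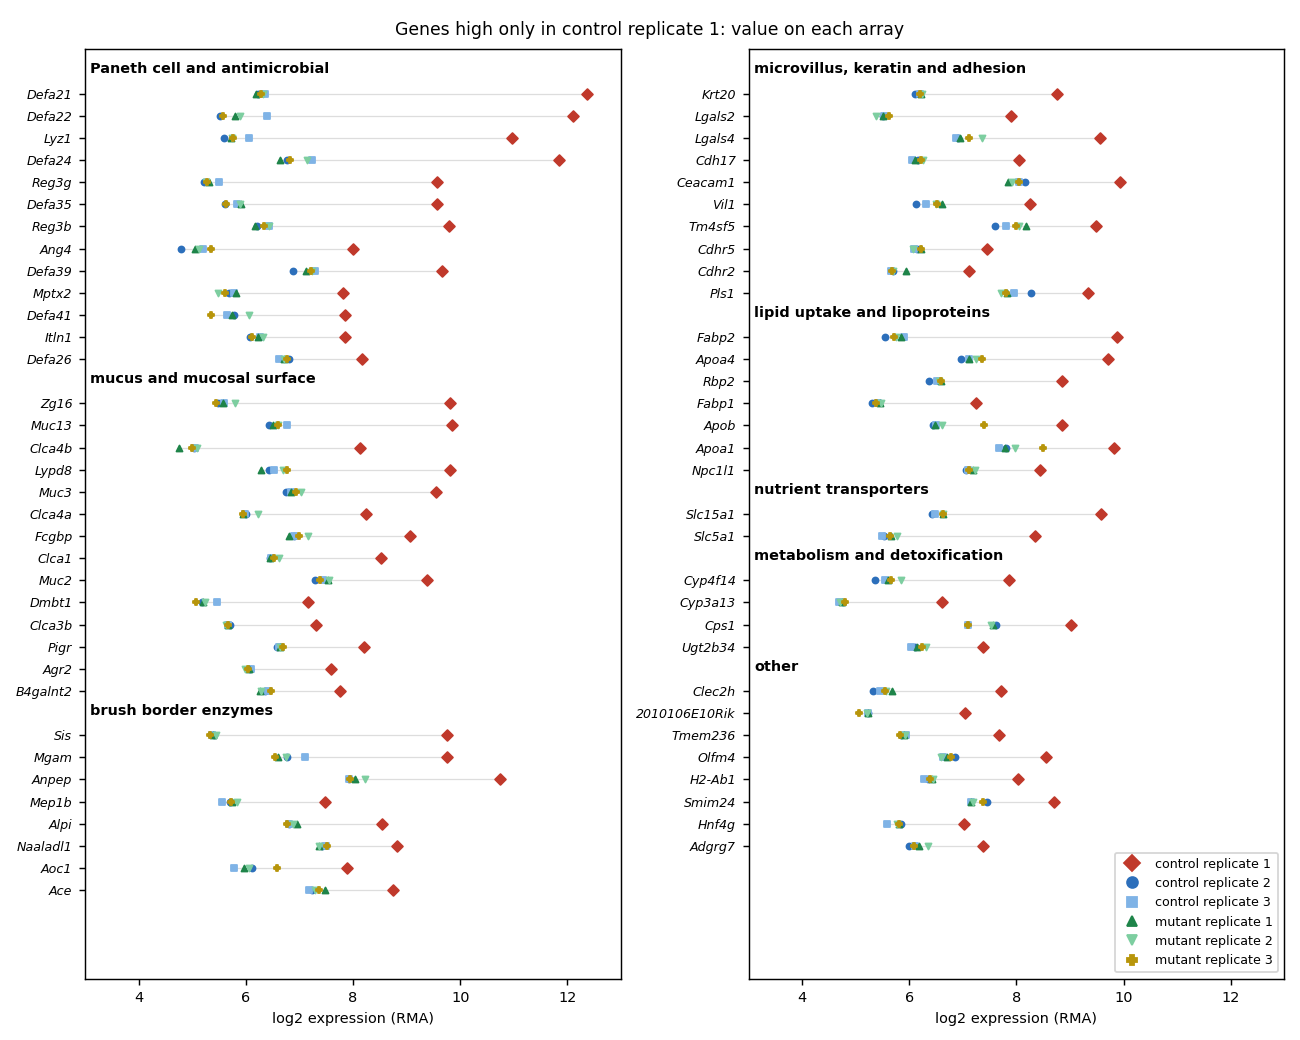
Log2 expression (RMA, horizontal axis) of the 66 genes on each of the 6 arrays, 1 row per gene, grouped by role. Control replicate 1 (red diamonds) stands to the right of the other 5 arrays in each row, by 1.03 (Adgrg7) to 6.01 (Defa21), which the choice of the genes required.

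Paneth cell and antimicrobial genes gave 13 of the 66 members and the highest median excess of the larger role groups, 3.36 (range 1.37 to 6.01). Defa21, which encodes an alpha-defensin peptide that kills bacteria, had log2 values of 12.37 in control replicate 1, 6.23 and 6.36 in control replicates 2 and 3, and 6.19, 6.32 and 6.28 in mutant replicates 1, 2 and 3. Its other 5 arrays averaged 6.28 ± 0.07 (SD, n = 5), so they were alike and control replicate 1 alone was high. Defa22, another alpha-defensin, was at 12.10 against 5.51 and 6.40 in the other controls and 5.80, 5.90 and 5.57 in the mutants. Control replicate 3 was the highest of the remaining arrays there, at a distance of 5.70 below control replicate 1. Defa24 was at 11.84 against 6.77 and 7.24 in the other controls and 6.63, 7.14 and 6.82 in the mutants. Defa35 was at 9.56 against 5.62 and 5.84 in the other controls and 5.91, 5.88 and 5.63 in the mutants. The related genes Defa39, Defa41 and Defa26 had excesses of 2.38, 1.79 and 1.37. Alpha-defensin genes are near copies of each other, so probes of 1 may capture transcripts of several, and which of them were present is uncertain.

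Lyz1 encodes the lysozyme of Paneth cells, an enzyme that cuts bacterial cell walls, and had log2 values of 10.96 in control replicate 1, 5.59 and 6.05 in control replicates 2 and 3, and 5.73, 5.73 and 5.77 in mutant replicates 1, 2 and 3. The other 5 arrays spanned less than 0.5 log2 units, with control replicate 3 the highest. Lyz2, the lysozyme of macrophages, whose promoter window is printed above, was not high with it, at 6.85 against 6.5036 and 6.38 in the other controls and 6.79, 6.60 and 7.21 in the mutants. Reg3g and Reg3b are secreted lectins that bind bacteria. Reg3g was at 9.57 against 5.21 and 5.49 in the other controls and 5.31, 5.25 and 5.28 in the mutants. Reg3b was at 9.79 against 6.21 and 6.43 in the other controls and 6.17, 6.42 and 6.33 in the mutants. In both genes all 5 other arrays lay within 0.3 log2 units of each other. Ang4, a Paneth cell ribonuclease with antimicrobial action, had an excess of 2.65, Mptx2, a pentraxin of Paneth cells, one of 2.00, and Itln1, a lectin that binds microbial sugars, one of 1.53.

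Mucus and mucosal surface genes gave 14 members with a median excess of 1.89. Zg16, a lectin of goblet cell mucus, was at 9.81 against 5.48 and 5.59 in the other controls and 5.58, 5.80 and 5.43 in the mutants. Muc13, a membrane mucin of the gut, was at 9.84 against 6.43 and 6.76 in the other controls and 6.5032, 6.60 and 6.60 in the mutants. Muc3, a further membrane mucin, was at 9.55 against 6.74 and 6.84 in the other controls and 6.83, 7.04 and 6.94 in the mutants. Fcgbp, a mucus protein that is cross-linked to mucin, was at 9.05 against 6.90 and 6.90 in the other controls and 6.81, 7.16 and 6.9955 in the mutants. Mutant replicate 2 was the highest of the other arrays in Zg16, Muc3 and Fcgbp, by small margins compared with the gap to control replicate 1. The secreted mucin gene Muc2 had an excess of 1.82, and Agr2, which folds mucins in the cell, one of 1.49.

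The Clca genes encode secreted proteins that affect chloride channels and mucus. Clca4b was at 8.13 against 5.02 and 5.05 in the other controls and 4.76, 5.09 and 5.0016 in the mutants, and the excess was 2.03 for Clca4a, 1.89 for Clca1 and 1.61 for Clca3b. In the order of protein-coding genes along the genome these 4 are direct neighbours. The other 4 measured Clca symbols, among them the pseudogene Clca4c-ps, had an excess between -0.33 and 0.05. Pigr, the receptor that carries antibodies across the epithelium, was at 8.21 against 6.57 and 6.62 in the other controls and 6.63, 6.64 and 6.69 in the mutants, a narrow band outside control replicate 1. Lypd8, a surface protein that keeps bacteria off the epithelium, had an excess of 3.04, Dmbt1, a scavenger protein of mucosal surfaces, one of 1.71, and B4galnt2, which adds a terminal sugar to glycans of the gut surface, one of 1.3025.

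Brush border enzymes gave 8 members with a median excess of 1.61. Sis, the sucrase-isomaltase that splits dietary sugars, had log2 values of 9.76 in control replicate 1, 5.41 and 5.36 in control replicates 2 and 3, and 5.39, 5.44 and 5.32 in mutant replicates 1, 2 and 3. Its other 5 arrays averaged 5.38 ± 0.04 (SD, n = 5), and none came within 4 log2 units of control replicate 1. Mgam, the maltase-glucoamylase that completes starch digestion, was at 9.75 against 6.77 and 7.10 in the other controls and 6.61, 6.74 and 6.55 in the mutants. Anpep, an aminopeptidase, was at 10.75 against 7.92 and 7.92 in the other controls and 8.04, 8.22 and 7.94 in the mutants. Mep1b, a subunit of the metalloprotease meprin, was at 7.49 against 5.71 and 5.55 in the other controls and 5.75, 5.84 and 5.73 in the mutants. Each of these genes had 1 high value and 5 low ones, and in Mgam control replicate 3 led the low arrays. Alpi, the intestinal alkaline phosphatase, had an excess of 1.58, the peptidase gene Naaladl1 one of 1.32, Aoc1, a diamine oxidase, one of 1.2970, and Ace, the angiotensin-converting enzyme, one of 1.28.

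Genes of microvillus structure, keratin and adhesion gave 10 members with a median excess of 1.70. Krt20, a keratin of mature gut epithelium, was at 8.76 against 6.10 and 6.20 in the other controls and 6.22, 6.24 and 6.20 in the mutants. Vil1, the actin bundler villin, was at 8.24 against 6.12 and 6.32 in the other controls and 6.60, 6.5039 and 6.51 in the mutants. Cdhr5 and Cdhr2 are protocadherins that link the tips of microvilli. Cdhr5 was at 7.46 against 6.14 and 6.09 in the other controls and 6.22, 6.07 and 6.22 in the mutants. Cdhr2 was at 7.12 against 5.70 and 5.65 in the other controls and 5.93, 5.69 and 5.67 in the mutants. Each of these genes had its 5 low values within 0.5 log2 units of each other. The cadherin gene Cdh17 had an excess of 1.79, the adhesion molecule gene Ceacam1 one of 1.76, the tetraspanin-like gene Tm4sf5 one of 1.31, the actin bundler Pls1 one of 1.08, and the lectin genes Lgals2 and Lgals4 of 2.28 and 2.20.

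Lipid uptake and lipoprotein genes gave 7 members with a median excess of 1.78. Fabp2, the intestinal fatty acid binding protein, had log2 values of 9.88 in control replicate 1, 5.56 and 5.91 in control replicates 2 and 3, and 5.85, 5.75 and 5.71 in mutant replicates 1, 2 and 3. The other arrays averaged 5.75 ± 0.14 (SD, n = 5). Apoa4, an apolipoprotein that enterocytes secrete after a fatty meal, was at 9.71 against 6.97 and 7.11 in the other controls and 7.12, 7.24 and 7.37 in the mutants. Rbp2, which binds vitamin A in enterocytes, was at 8.84 against 6.37 and 6.51 in the other controls and 6.59, 6.56 and 6.60 in the mutants. Fabp1, shared by liver and intestine, was at 7.25 against 5.30 and 5.41 in the other controls and 5.45, 5.47 and 5.39 in the mutants. In these 4 genes the 5 low values lay within 0.4 log2 units of each other. Npc1l1, the cholesterol uptake protein, had an excess of 1.20.

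Apob, the backbone of lipoprotein particles, was at 8.85 against 6.43 and 6.4975 in the other controls and 6.48, 6.62 and 7.40 in the mutants. Apoa1, the main protein of high-density lipoprotein, was at 9.83 against 7.81 and 7.68 in the other controls and 7.78, 7.98 and 8.50 in the mutants. In both, mutant replicate 3 was second to control replicate 1. The same array was second in Aoc1, at 6.58, and it had the highest value of Afp, a plasma protein of embryonic liver and yolk sac, which was at 7.36 against 7.29 and 7.50 in the other controls and 7.94, 8.10 and 9.53 in the mutants. Guca2b, a gut peptide hormone gene of the goblet list that was no member, was high on both arrays, at 10.18 against 8.59 and 8.34 in the other controls and 8.39, 8.45 and 11.08 in the mutants. Whether these genes were high on mutant replicate 3 for 1 reason was not tested.

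Nutrient transporters and metabolic enzymes gave 2 and 4 members. Slc15a1, which takes up small peptides, was at 9.57 against 6.43 and 6.48 in the other controls and 6.63, 6.62 and 6.62 in the mutants. Slc5a1, which takes up glucose with sodium, was at 8.34 against 5.53 and 5.50 in the other controls and 5.66, 5.78 and 5.63 in the mutants. Cyp4f14, a fatty acid hydroxylase, was at 7.86 against 5.36 and 5.55 in the other controls and 5.60, 5.84 and 5.65 in the mutants. In all 3 genes the 5 other arrays lay within 0.5 log2 units of each other, far below control replicate 1. Cyp3a13, a drug-metabolising enzyme, was at 6.61 against 4.77 and 4.69 in the other controls and 4.75, 4.70 and 4.81 in the mutants. Cps1, which starts the urea cycle in liver and intestine, was at 9.01 against 7.61 and 7.09 in the other controls and 7.57, 7.53 and 7.10 in the mutants. Ugt2b34, which attaches sugar acid to steroids and drugs, was at 7.37 against 6.11 and 6.03 in the other controls and 6.14, 6.31 and 6.23 in the mutants. Cps1 varied most of these outside control replicate 1, with low values in control replicate 3 and mutant replicate 3.

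Of the remaining 8 members, Hnf4g encodes a transcription factor of enterocytes and was at 7.02 against 5.85 and 5.59 in the other controls and 5.82, 5.78 and 5.81 in the mutants. Olfm4, a marker of crypt base cells, was at 8.54 against 6.86 and 6.62 in the other controls and 6.70, 6.60 and 6.78 in the mutants. H2-Ab1 encodes a chain of the class II molecule that presents antigens, and was at 8.03 against 6.36 and 6.28 in the other controls and 6.43, 6.45 and 6.39 in the mutants. Each of these was high on the single array. Clec2h, a lectin-like surface protein, had an excess of 2.04, Tmem236 one of 1.74, Smim24 one of 1.24 and the adhesion receptor gene Adgrg7 one of 1.03. The eighth, 2010106E10Rik, carries a RIKEN clone symbol (excess 1.81).

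Over all 66 members the median excess was 1.81, a 3.504-fold difference, against a median of -0.10 over all genes. An excess above 4 was reached by 7 members, above 3 by 13 and above 2 by 28, while 38 lay between 1 and 2. The spread among the other 5 arrays was small beside the excess but wider than for all genes. The SD of a member had a median of 0.12 (range 0.03 to 0.41), against 0.09 for all genes. An SD under 0.2 was found for 54 members. The members nearest above the threshold were Adgrg7 (1.03), Ugt2b34 (1.06) and Pls1 (1.08). Nearest below it were Mttp, which loads fat onto lipoproteins (0.9996), the organic anion exporter gene Abcc2 (0.9991) and Myo1a, a motor of the microvillus (0.9942).

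No gene was low on control replicate 1 alone by the mirrored rule (0 of 22180). Applied to each of the other arrays, the rule for high genes found 1 gene in control replicate 2, 0 in control replicate 3, 7 in mutant replicate 1, 58 in mutant replicate 2 and 5 in mutant replicate 3. Control replicate 1 was thus 1 of 2 arrays with a large set of its own. Over all genes, control replicate 1 was the highest of the 6 arrays in 13.6% and within the range of the other 5 in 16124 genes. Pairs of arrays correlated at r between 0.991 and 0.995 across probe sets, which are not independent replicates.

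**Figure D2:**
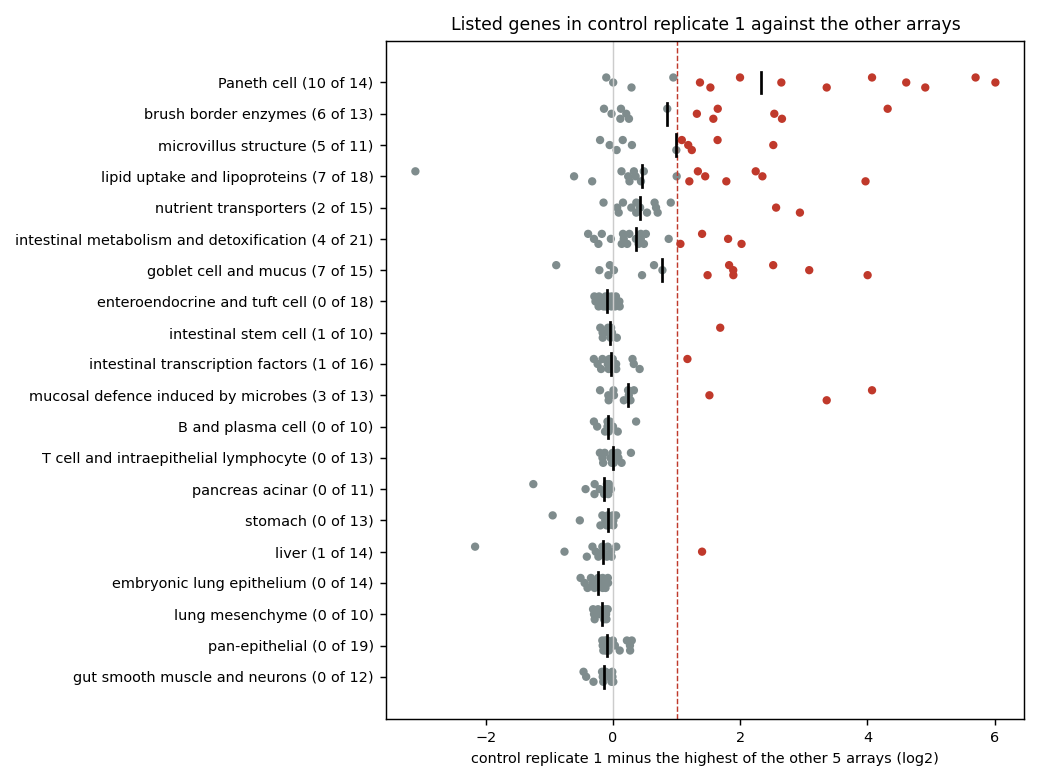
Excess of control replicate 1 over the highest of the other 5 arrays (log2, horizontal axis) for each measured gene of 20 lists, with members in red, a black bar at each list's median and the threshold of 1 dashed. The Paneth list reaches 6.01 with 10 of 14 genes past the threshold, while the enteroendocrine, stomach, pancreas and lung lists have none.

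Lists of genes known from intestinal and other cell types were set beside the members. They were written with earlier results of these data known, so their counts describe the set and support nothing. Of 161 measured genes in 11 intestinal lists, 44 (27.3%) were members, against 0.298% of all genes, and the remaining 22 members stood in no list. The Paneth list had 10 of 14, with a median excess of 2.32, and its gene nearest the threshold outside the set was the matrix protease gene Mmp7 (0.95), followed by Pla2g2a (0.29) and Clps (0.0014). Brush border enzymes had 6 of 13 (median 0.85), with lactase, Lct, next at 7.82 against 6.72 and 6.74 in the other controls and 6.97, 6.84 and 6.87 in the mutants. Microvillus genes had 5 of 11 (median 0.99), goblet and mucus genes 7 of 15 (median 0.78, Spink4 next at 0.78) and lipid genes 7 of 18 (median 0.46). Nutrient transporters had only 2 of 15, but 14 of 15 were highest in control replicate 1, with Slc6a19, which takes up neutral amino acids (0.91), Slc3a1 (0.70) and Slc2a2 (0.68) next. Metabolic genes had 4 of 21, with Ces2e (0.87) next, and the list of microbe-induced defence genes 3 of 13, with Reg1 (0.33) and Reg3a (0.27) next. Of those 3 defence members, Reg3b and Reg3g also stand in the Paneth list.

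Other intestinal lists were nearly without members. Enteroendocrine and tuft cell genes had 0 of 18, with a median excess of -0.10 and the hormone granule gene Chga at the top (0.10). Of 10 stem cell genes Olfm4 alone was a member, and the stem cell receptor gene Lgr5 was within the range of the other arrays (excess -0.16). Of 16 intestinal transcription factors Hnf4g alone was a member. Klf5 (0.42), Nr1i2 (0.33) and Hnf4a (0.31) were next, and Cdx2, the master regulator of intestinal identity, was at 6.96 against 6.86 and 6.97 in the other controls and 6.93, 6.86 and 6.87 in the mutants. Of 3 bile acid genes of the lower small intestine, Slc51a, which exports bile acids, had an excess of 0.36, Fabp6, which binds them, 0.13, and Slc10a2, which takes them up, 0.06. These 3 were taken from the transporter and lipid lists outside the naming rule and stand for no region of the gut. In those lists 14 of 15 and 15 of 18 genes were highest on control replicate 1. The deposited table holds no detection calls, so a gene that does not differ between arrays may be absent or below what its probes can measure.

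Stomach genes had 0 of 13 members (highest, Tff1 at 0.05) and pancreas acinar genes 0 of 11 (highest, Cpa1 at -0.03). Smooth muscle and neuron genes of the gut wall had 0 of 12 (highest, Vip at 0.0032). Of 14 liver genes the only member was Cps1, which also stands in the metabolic list, and Apoh was next at 0.05. B and plasma cell genes had 0 of 10, with Jchain, which joins secreted antibodies, at 5.36 against 4.84 and 4.96 in the other controls and 4.90, 4.99 and 4.95 in the mutants. T cell genes had 0 of 13, with the chemokine gene Ccl5 at 0.28.

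The lung markers were present on control replicate 1. Nkx2-1, the transcription factor that marks lung epithelium, was at 10.41 against 10.57 and 10.49 in the other controls and 10.05, 10.09 and 10.09 in the mutants. Sftpc, a surfactant protein gene of the epithelial tips, was at 10.74 against 11.06 and 10.50 in the other controls and 11.02, 10.39 and 10.08 in the mutants. Of 14 lung epithelium genes 13 lay within the range of the other 5 arrays on control replicate 1, as did 9 of 10 lung mesenchyme genes, against 16124 of all 22180 genes. That range includes the mutants, in which some of these genes were lower. In both lists 0 genes were highest on control replicate 1, against 13.6% of all genes. The median differences of the 2 lists from the mean of control replicates 2 and 3 were -0.07 and -0.05, against 0.004 over all genes. Of 19 pan-epithelial genes, 13 were within that range and 6 were above it, led by the keratin gene Krt19, at 8.40 against 7.88 and 7.84 in the other controls and 8.07, 7.68 and 8.10 in the mutants, and by Krt8 (excess 0.27) and Cldn7 (0.27). The part of intestinal transcripts in those 6 values was not tested.

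The same rule was read for near copies and for probe sets without a single gene name. Of 13 measured alpha-defensin genes and pseudogenes with a symbol of their own, 7 were members. The other 6 had an excess between -0.08 and 0.90, the highest being Defa33. They include the pseudogenes Defa-ps1, Defa-ps12 and Defa-ps13, the last at the low end. A further 22 of 17824 probe sets with several symbols or none (0.12%, against 0.298% of genes) passed the same rule. Of these, 7 were alpha-defensin probe sets with an excess of 1.11 to 3.18, out of 9 such probe sets, and 12 had no symbol here (1.42 to 4.48). The others included 1 probe set for immunoglobulin kappa segments (2.20) and 1 for Cd74 (1.35), the chaperone of class II molecules. H2-Aa, the partner chain of H2-Ab1, was just outside the set at 6.98 against 5.62 and 5.81 in the other controls and 5.99, 6.01 and 6.0013 in the mutants. The other 7 of 9 measured class II genes had excesses between -0.28 (H2-Oa) and 0.19 (H2-Eb1). These features were picked after their values had been seen. Several of the defensin probe sets list the same genes, and a pair without a symbol had the same values on every array. Such probe sets are not separate observations.

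Only 3 members had a second probe set. That of Muc2 was also high, at 9.67 in control replicate 1 against at most 6.93 elsewhere (excess 2.73). The second probe sets of Rbp2 (excess -0.07) and Clca4a (-0.07) did not differ in that way, so 1 of 3 passed the rule. Along the genome, 15 members had another member within 10 protein-coding genes: the Clca group, the defensins, Reg3b with Reg3g and Apoa1 with Apoa4.

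**Figure D3:**
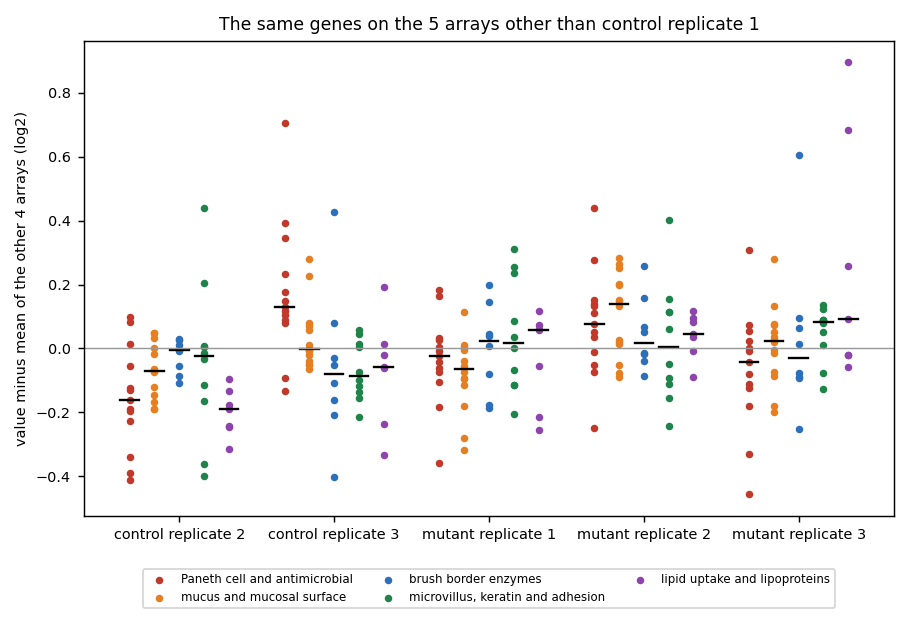
Log2 value on each of the 5 arrays other than control replicate 1 minus the mean of the remaining 4 (vertical axis), for members of 5 roles, with a black bar at each median. Paneth genes lie highest in control replicate 3 (median 0.13) and Apob, Apoa1 and Aoc1 stand out in mutant replicate 3.

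Among the other 5 arrays the members varied little beside their excess, and not all in 1 way. Mutant replicate 2 was the highest of the 5 in 22 members (33.3%, against 22.3% of all genes), and in mucus genes its median deviation from the other 4 was 0.14. Control replicate 3 was the highest in 13 members (19.7%, against 15.99% of all genes). In Paneth and antimicrobial genes it was the highest in 7 of 13, with a median deviation of 0.13, the widest being that of Defa22 (0.71). Control replicate 2 was the lowest group by median in the Paneth genes (-0.16) and the lipid genes (-0.19). These distances are small beside the excess of 1.37 to 6.01 that separated control replicate 1 from the Paneth genes' next array, and they were not tested. With control replicate 1 set aside, the 3 mutants lay above both remaining controls in 17 of the 66 members, where 19.62% of all genes did so, and below both in 4, where 14.58% did. Some of these gaps were minute, as in Apoa4.

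In the study's own comparison, mutant against control lungs, each of the 66 members had a lower mean in the mutants, with a median log2 difference of -0.63 (range -2.25 to -0.23) against 0.01 over all genes. Since the members were chosen on the same arrays, that direction largely follows from the choice. The p-values set the difference against the spread among arrays within groups, and for the members control replicate 1 enters both. The standard errors had a median of 0.51 against 0.06 over all genes. By limma with Benjamini-Hochberg adjustment over all genes, 0 of 66 members were called at an adjusted p under 0.05, where 0.0631% of all genes were. At an unadjusted p under 0.05 there was 1 member, Pls1, against 12.49% of all genes. Defa21 had a mutant minus control difference of -2.06 (SE 1.47, adjusted p = 0.586 by limma), and Sis one of -1.46 (SE 1.06, adjusted p = 0.593). The lowest adjusted p among members was that of Pls1 (0.396, difference -0.73, SE 0.31).

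**Figure D4:**
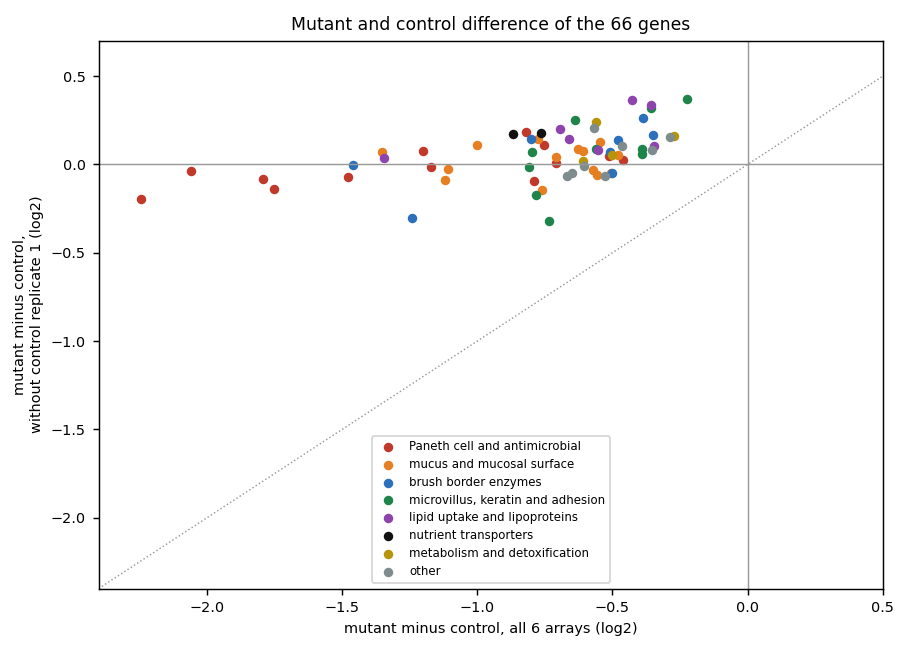
Mutant minus control difference (log2) of the 66 genes with all 6 arrays (horizontal axis, -2.25 to -0.23) and without control replicate 1 (vertical axis, -0.32 to 0.37), coloured by role, with equality dotted. Without that array the points lie around 0.

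Without control replicate 1 the same fit gave a median difference of 0.07 over the members, against 0.02 over all genes, with 43 higher and 23 lower in the mutants. The range narrowed to -0.32 (Pls1) to 0.37 (Tm4sf5), and the median SE to 0.09. Limma again called 0 of 66 members and 0% of all genes at an adjusted p under 0.05 on these 5 arrays. At an unadjusted p under 0.05 there were 9 members, 7 higher and 2 lower, against 13.90% of all genes, a share near that background. The lowest was Tm4sf5, with a difference of 0.37 (SE 0.08, adjusted p = 0.205 by limma). For Defa21 the difference was -0.03 (SE 0.07), for Lyz1 -0.08 (SE 0.12), for Sis -0.0011 (SE 0.06) and for Fabp2 0.04 (SE 0.11). Role groups had medians between -0.01 (Paneth) and 0.17 (transporters) in place of -1.17 and -0.82.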

How the data were processed

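The authors deposited log2 expression values of 41345 probe sets on 6 arrays, for which the submitters' processing notes name oligo and RMA; the log2 scale was inferred from their range (3.55 to 14.04). Versions, filters, probe set level and build were not stated. RMA forces arrays to 1 distribution and compresses low and high values. Probe sets with 1 symbol in the platform annotation (23521) gave 22180 genes; of several probe sets of a gene (1082 genes) the highest mean was used. All 66 members matched RefSeq by Entrez identifier with the same symbol. The genotypes were tested by limma 3.58.1 under R 4.3.3 (two-sided, Benjamini-Hochberg over all genes, threshold 0.05). On simulated data with known changes the same fit missed a few of them and made some false calls. Dim probe sets were kept.

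The members, roles and gene lists were chosen with earlier results of these data known. The naming rule took every member, with values on each array for the 12 with the largest excess, the 4 markers Defa21, Lyz1, Sis and Fabp2, and up to 4 per list; for lists of intestinal cells, up to 3 non-members; and the 3 genes on either side of the threshold. Alternatives covered the threshold, probe set summary, normalization, filter, variance model, array weights, replicate block and each array left out. Leaving out control replicate 1 and mutant replicate 2 together was added after seeing the data. Figures used matplotlib 3.10.9.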

Additional observations from a re-analysis of the deposited data

How the results depend on the processing

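The set of 66 genes depended on its threshold: 104 genes passed at 0.5, 48 at 1.5 and 28 at 2, and 34 of the members stood above the 30th percentile of mean expression. Averaged probe sets and each probe set as its own feature gave 66, a further quantile normalization 67, and leaving out 1 of the other arrays 66 to 70, all with the 66 members among them. The median excess of the members ran from 1.79 to 1.85. Against the mutants, limma called 0 members in each setting, with 0 to 9 at an unadjusted p under 0.05. In settings that kept control replicate 1, these counts were bound by the choice of the genes. The median difference was -0.52 with array weights, 0.0465 when control replicate 1 was dropped along with mutant replicate 2 (chosen after seeing the data); leaving out 1 array gave -0.98 (without control replicate 2 or 3) to 0.0717 (without control replicate 1). With the replicate number as a block 0 members were called and the median stayed at -0.63; over all genes limma then called 0 in place of 14. The other settings called 8 (quantile) to 26 (eBayes trend or robust) genes with 6 arrays, 25 with the percentile filter, and 0 with any array left out. Same-numbered arrays deviated from their group means with correlations of -0.04, -0.06 and 0.07. The labels do not say whether such arrays shared a litter or a day. With 3 arrays per group these correlations cannot decide it. Of 60 list counts, 59 were within 1.5 times the reported one; the exception was nutrient transporters, with 7 at a threshold of 0.5. No array has signal over background in the deposited table, so depth of detection cannot be given.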
